A study of Mus musculus with 8 samples.

Results

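The genes described are p53 and a set of its regulators and targets, 31 genes in all, taken by name from what is known of the pathway; the rule uses no measured value, but the list was drawn up with earlier results of these data known. A gene was read from the probe sets, the groups of short oligonucleotides that stand for a transcript on an Affymetrix array, that are annotated to that gene alone. Of the 31 genes, 28 were analysed, out of 13307 genes with such a probe set. Trp53, which encodes p53 itself, Bax, a pore-forming protein of the mitochondrial outer membrane, and Fdxr, ferredoxin reductase, are not analysed here, so what follows describes the genes around p53 and not p53. Where a gene had several probe sets, the one with the highest mean over all arrays represents it, and the others are given beside it.

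RNA came from primary mouse embryonic fibroblasts (MEFs), cells grown directly from embryos. There were 4 wild-type (WT) lines and 4 lines with the genotype Cry1-/-|Cry2-/- (Cry DKO), which lack both cryptochromes, the repressors at the core of the circadian clock. All 8 lines had a near-C57BL/6J background, reached by more than 7 backcrosses from BL6/129 mice, received no treatment, and proliferated without synchronisation in DMEM/F10 with 10% FCS at 3% oxygen. Each array came from an independent line, so the spread below is the spread between lines, and their number limits the precision.

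p53 is a transcription factor that is held at a low level by the ubiquitin ligase MDM2 and rises when DNA is damaged or cells are stressed. It then raises genes that stop the cell cycle, start apoptosis, repair DNA or adjust metabolism, and it also raises Mdm2 and other genes that bring p53 down again. In cultured embryonic fibroblasts it is known for its part in growth arrest and senescence, which handling and high oxygen promote.

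All values are signals on a log2 scale, and all differences are Cry DKO minus WT on that scale with their standard error (SE). A gene was tested where its mean over the 8 arrays reached 6.06, the 40th percentile of all probe sets, called the floor. Adjusted p-values come from limma with Benjamini-Hochberg adjustment over all 9511 tested genes, and a gene is said to have fallen or risen where this value was under 0.05. In bulk RNA, fewer cells of a type and less RNA per cell cannot be told apart. The array medians of the deposited values ran from 6.78 to 6.79. The method of normalisation was not given, so these medians do not show how alike the arrays were before it. Of 12 fibroblast markers 9 reached the floor, while Dcn, Lum and Pdgfra did not. Their mean was 11.16 to 11.36 in WT lines and 11.02 to 11.15 in Cry DKO lines, and none of the 5 endothelial markers analysed reached the floor. Macrophage and blood cell markers were well above it, at a mean of 8.01 to 8.62 over 22 genes in WT lines and 8.61 to 9.61 in Cry DKO lines.

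Of the 28 genes, 26 reached the floor and were tested, and 3 of them fell in Cry DKO lines: Btg2, Ccng1 and Eda2r. None rose in limma, and the 6 of 26 genes with an unadjusted limma p under 0.05 all had lower means in Cry DKO lines. Such a p was also found for 2406 of all 9511 tested genes, in either direction. Over all tested genes 4.23% fell and 4.95% rose. The difference was below 0 for 19 of the 26 genes (73.1%) and for 51.5% of all tested genes, with a median of -0.07 against -0.01. The WT and Cry DKO lines did not overlap for 5 of the 26 genes, Btg2, Ccng1, Eda2r, Polk and Ei24, each lower in Cry DKO lines. Over all tested genes 8.44% were lower and 8.32% higher without overlap.

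**Figure D1:**
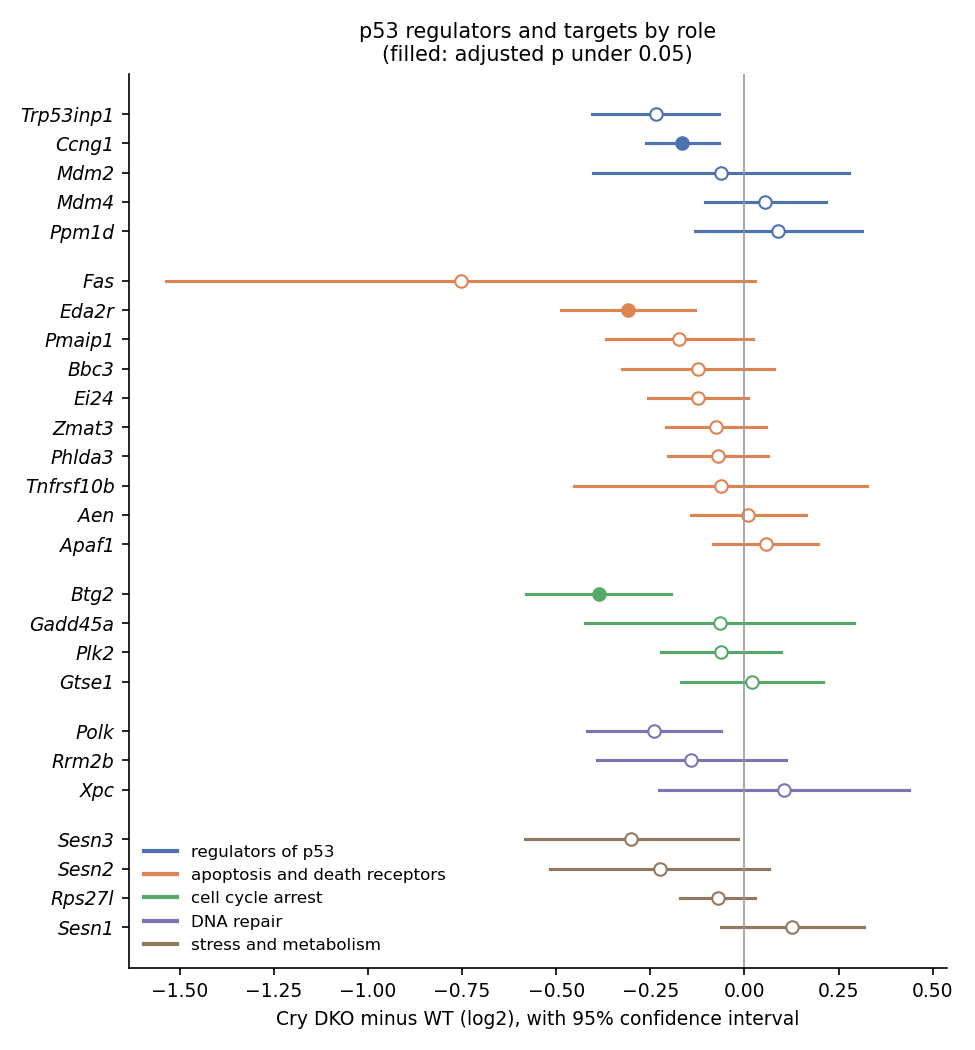
Difference between 4 Cry DKO and 4 WT lines (log2, x axis) for the 26 tested genes, grouped by role, with lines for 95% confidence intervals and filled points for an adjusted p under 0.05. Btg2, Ccng1 and Eda2r are filled, 19 points lie left of 0, and the interval of Fas is the widest, from -1.54 to 0.03.

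Btg2 encodes an antiproliferative protein that p53 induces and that restrains entry into S phase. Its signal was 9.84, 9.97, 9.72 and 9.90 in WT lines 1 to 4 and 9.27, 9.62, 9.61 and 9.39 in Cry DKO lines 1 to 4. The highest Cry DKO line lay below the lowest WT line, and Cry DKO lines 1 and 4 were the lowest of all. The means were 9.86 ± 0.10 (SD, n = 4) and 9.47 ± 0.17, a difference of -0.39 (SE 0.09, limma adjusted p = 0.0229). Its other probe set was dimmer and moved further, with means of 9.09 ± 0.11 (SD, n = 4) for WT and 8.51 ± 0.21 for Cry DKO and no overlap. When each probe set was tested by limma, this one fell by 0.58 (SE 0.10, adjusted p = 0.00889) and the brighter one by 0.39 (adjusted p = 0.0273). The call of Btg2 ended without WT line 1, 2 or 4, where the adjusted p was 0.0527, 0.0666 and 0.0554.

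Ccng1 encodes cyclin G1, a strong p53 target that brings the phosphatase PP2A to MDM2 and so feeds back on p53. Its signal was 12.99, 12.89, 13.02 and 12.96 in WT lines and 12.82, 12.82, 12.83 and 12.73 in Cry DKO lines, again without overlap. The difference was small, -0.17 (SE 0.04, limma adjusted p = 0.0419), and the within-group SD of 0.05 was the smallest among the 26 genes. Its probe sets did not move alike. The dimmest of the 3 fell by 0.30 (SE 0.05, limma adjusted p = 0.00647 with each probe set tested), from 11.74 to 11.87 in WT lines to 11.43 to 11.54 in Cry DKO lines. The middle one differed by -0.13 (adjusted p = 0.329) and its groups overlapped. The call of the brightest one ended in 7 of 8 fits that leave out 1 line, all but that without WT line 2. It also ended after quantile normalisation (-0.14, adjusted p = 0.0874) or cyclic loess (-0.15, adjusted p = 0.0666), and it passed in 8 of 17 other alternatives.

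Eda2r, a receptor of the TNF family for the ligand ectodysplasin A2, lies on the X chromosome. Its signal was 8.41, 8.67, 8.54 and 8.45 in WT lines and 8.08, 8.27, 8.29 and 8.19 in Cry DKO lines, without overlap and with Cry DKO line 1 the lowest. The difference was -0.31 (SE 0.08, limma adjusted p = 0.0382). The call ended whichever line was left out, with differences from -0.35 to -0.26.

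**Figure D2:**
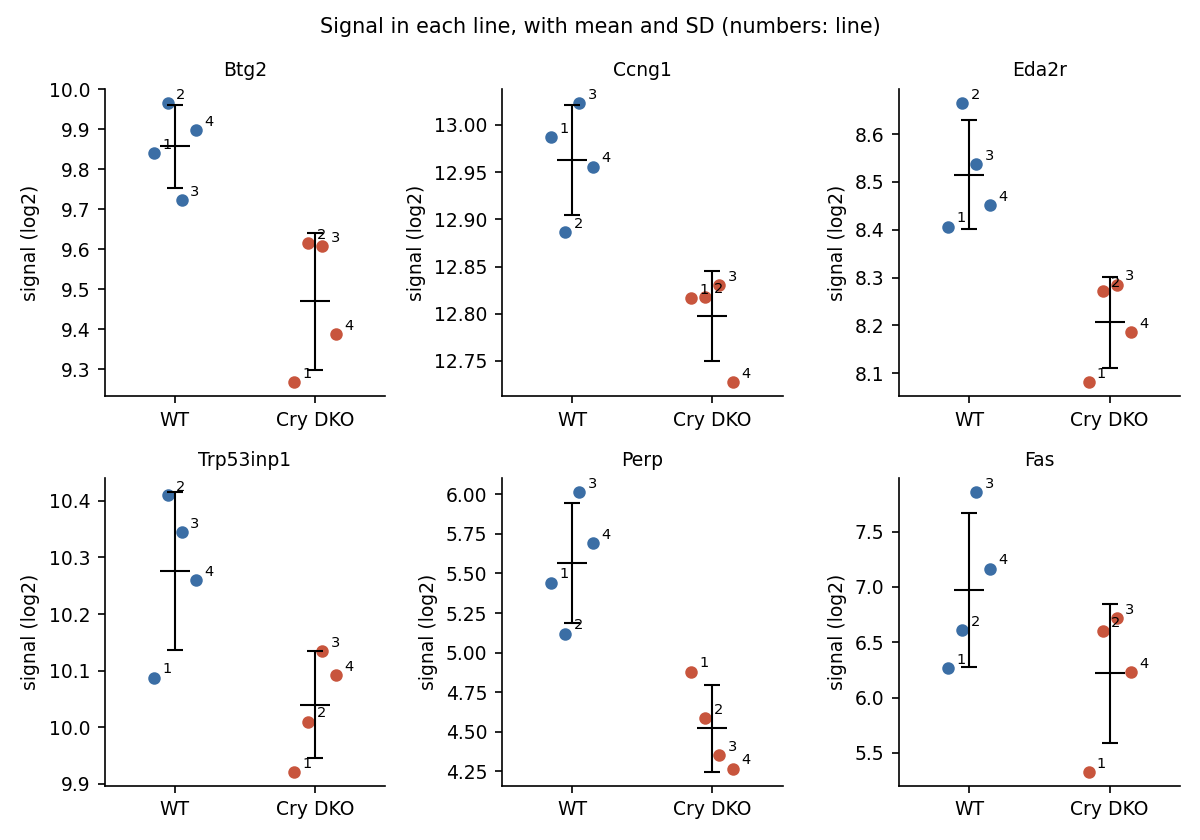
Signal (log2, y axis; each panel has its own range) of 6 genes in WT lines (blue) and Cry DKO lines (red), with the line number beside each point and bars for mean and SD. WT and Cry DKO lines are apart for Btg2, Ccng1, Eda2r and Perp and overlap for Trp53inp1 and Fas.

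For the 3 genes that were called, the 250 bases before their transcription starts are shown, from RefSeq on build GRCm38.p6, read 5′ to 3′ along the gene. Capitals mark exact matches to the p53 consensus half-site, 10 bases made of purines, a C, a pair of A or T, a G and pyrimidines, read on both strands. The windows are chr11:40755287-40755536 for Ccng1, chr1:134079156-134079405 for Btg2 and chrX:97377210-97377459 for Eda2r, each on the minus strand.
Ccng1: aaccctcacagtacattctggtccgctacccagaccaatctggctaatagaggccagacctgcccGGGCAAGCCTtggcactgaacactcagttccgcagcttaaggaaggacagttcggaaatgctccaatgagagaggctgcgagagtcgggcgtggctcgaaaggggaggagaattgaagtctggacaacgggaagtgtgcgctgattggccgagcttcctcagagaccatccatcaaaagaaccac
Btg2: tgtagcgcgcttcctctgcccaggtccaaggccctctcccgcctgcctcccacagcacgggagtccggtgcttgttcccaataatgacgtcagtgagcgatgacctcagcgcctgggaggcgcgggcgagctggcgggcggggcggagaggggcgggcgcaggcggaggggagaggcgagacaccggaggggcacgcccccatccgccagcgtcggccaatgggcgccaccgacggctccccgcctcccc
Eda2r: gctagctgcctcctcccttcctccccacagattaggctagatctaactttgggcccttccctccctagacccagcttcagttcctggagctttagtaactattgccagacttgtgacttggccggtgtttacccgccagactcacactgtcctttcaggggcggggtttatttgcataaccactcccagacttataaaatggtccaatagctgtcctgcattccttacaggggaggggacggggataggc

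The Ccng1 window held 1 match, 185 bases before the start. The windows of Btg2 and Eda2r held none, which says only that these letters are not in those 250 bases. Starts were listed for 20 of the 28 genes, and 9 of the 20 held a half-site before at least 1 listed start, against 8.2% of all 27025 genes in the table. Of these 9 only Ccng1 was called, and the matches before Mdm2, Gadd45a, Ei24 and Polk are shown to set beside that of Ccng1. They lie at chr10:117710925-117710954, chr6:67037428-67037457, chr9:36797335-36797354 and chr13:96519399-96519428, all on the minus strand, with the half-site in capitals. Polk had another listed start, and the window before it held no match.
Mdm2: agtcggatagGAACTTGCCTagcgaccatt
Gadd45a: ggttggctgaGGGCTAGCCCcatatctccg
Ei24: cgtgcggcccGGGCATGCCC
Polk: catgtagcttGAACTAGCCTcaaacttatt

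The other genes with a match were Ppm1d, Aen, Sesn1 and Rps27l, the last with 2. CACGTG, the E-box that CLOCK and ARNTL bind, stood before a listed start of 3 of the 20 genes, Bbc3, Aen and Fas, and of 6.86% of all genes, and none of these 3 passed. It shared no base with a half-site. A match is a string of letters and not a measured binding site.

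Among the regulators of p53, 1 of 5 tested genes fell, Ccng1, with a median difference of -0.06. Trp53inp1 encodes a nuclear stress protein that favours phosphorylation of p53. Its brighter probe set read 10.09, 10.41, 10.34 and 10.26 in WT lines and 9.92, 10.01, 10.13 and 10.09 in Cry DKO lines, and only WT line 1 lay among the Cry DKO values. The difference of -0.24 (SE 0.08) did not pass (limma adjusted p = 0.081). Its dimmer probe set read 7.21, 7.54, 7.42 and 7.21 in WT lines against 6.46, 6.91, 6.95 and 6.73 in Cry DKO lines, without overlap. With each probe set tested it fell by 0.59 (SE 0.13, limma adjusted p = 0.0245). In that test, over 16333 probe sets, 3.14% fell and 3.67% rose.

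Mdm2, the ubiquitin ligase that degrades p53 and is itself its target, differed by -0.06 (SE 0.15, limma adjusted p = 0.843), with a 95% confidence interval from -0.40 to 0.28. The values were 9.54, 10.10, 10.35 and 10.19 in WT lines and 9.85, 10.14, 10.17 and 9.79 in Cry DKO lines. The 3 lowest were WT line 1 and Cry DKO lines 1 and 4. These are the lines with a mean signal of Y-linked genes of 2.66 to 2.96 against 7.74 to 7.94 in the other 5, and thus the female ones. Mdm2 was 9.54 to 9.85 in female and 10.10 to 10.35 in male lines. In a fit of genotype and sex together, whose sex coefficient was added after seeing the data, the male minus female difference was 0.48 (SE 0.09, unadjusted p = 0.000223, limma adjusted p = 0.265) and did not pass. By this term 0.0105% of all tested genes were called higher and 0.0315% lower in male lines, none of them among the 26, where Mdm2 and Fas had an unadjusted p under 0.05.

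The next brightest probe set of Mdm2 did not show that order. It read 10.19, 10.17, 10.13 and 9.98 in WT lines against 9.82, 10.04, 9.92 and 9.60 for Cry DKO, and differed by -0.27 (SE 0.09, limma adjusted p = 0.0969 with each probe set tested). Its lowest value was in Cry DKO line 4, and WT line 1 was the highest. The remaining probe set, below the floor, differed by 0.34 and was not tested.

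Mdm4, a relative of MDM2 that binds p53 and blunts its activity, differed by 0.06 (SE 0.07, limma adjusted p = 0.681), with lines between 7.96 and 8.16. Its next probe set gave 0.21 (adjusted p = 0.441) and the last, below the floor, 0.92. Ppm1d encodes WIP1, a phosphatase that removes activating phosphates from p53, and differed by 0.09 (SE 0.10, limma adjusted p = 0.626). Its Cry DKO lines 2 to 4 lay at 7.24 to 7.27, above all WT lines (7.06 to 7.15), and Cry DKO line 1 was below them at 6.95. The other probe set of Ppm1d gave 0.05.

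**Figure D3:**
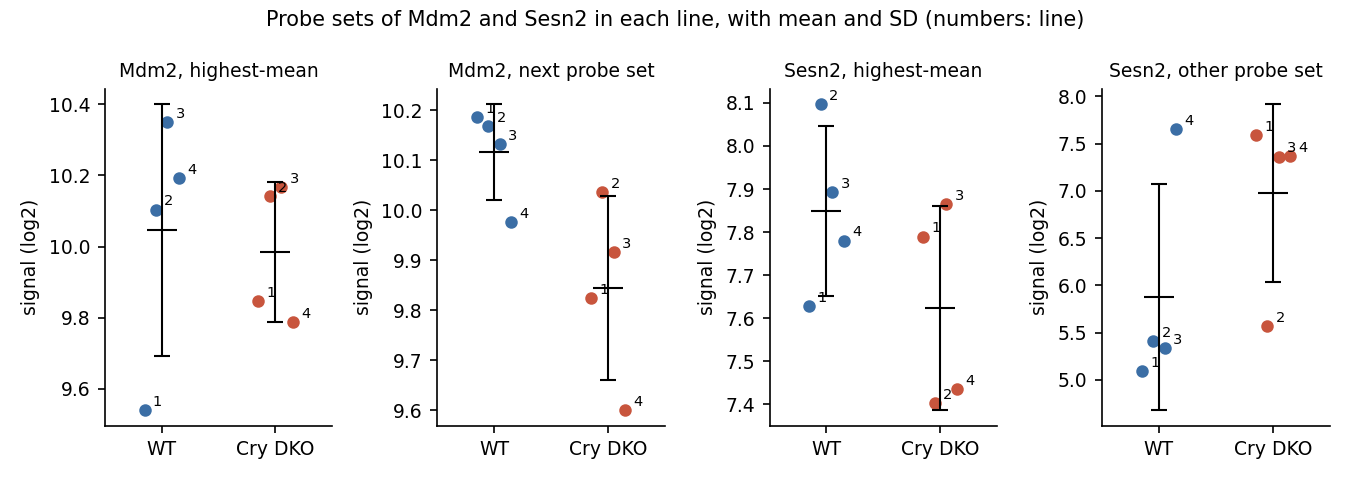
Signal (log2, y axis; each panel has its own range) of the 2 brightest probe sets of Mdm2 and of both probe sets of Sesn2 in WT (blue) and Cry DKO (red) lines, with line numbers and bars for mean and SD. WT line 1 is the lowest in the first Mdm2 probe set and the highest in the second, and the second Sesn2 probe set falls into values of 5.09 to 5.57 and of 7.36 to 7.66.

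Among the 10 tested genes of apoptosis and death receptors, 1 fell, Eda2r, and 8 had a difference below 0, with a median of -0.10. The BH3-only proteins that trigger mitochondrial apoptosis did not pass: Bbc3 (PUMA) differed by -0.12 (SE 0.09, limma adjusted p = 0.436). Pmaip1 (NOXA) differed by -0.17 (SE 0.09, limma adjusted p = 0.256). Its signal was 11.45, 11.44, 11.38 and 11.00 in WT lines, and the 4 Cry DKO lines lay between WT line 4 and the other WT lines, at 11.09 to 11.17. Without WT line 4 the difference was -0.28 and passed (limma adjusted p = 0.0135). Apaf1, the scaffold of the apoptosome, differed by 0.06 (SE 0.06, adjusted p = 0.623), and its other probe set by -0.11 (adjusted p = 0.592 with each probe set tested), the opposite sign.

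Fas, the death receptor, had the largest difference of the tested genes and the largest within-group SD, 0.66. It read 6.27, 6.61, 7.86 and 7.17 in WT lines and 5.33, 6.60, 6.72 and 6.23 in Cry DKO lines. The groups overlapped, and the difference of -0.75 (SE 0.36) did not pass (limma adjusted p = 0.214). The 3 lowest values were again those of the female lines, 5.33 to 6.27. Tnfrsf10b, the receptor of the death ligand TRAIL, was close to the floor at 5.56 to 6.34 and differed by -0.06 (SE 0.18, limma adjusted p = 0.863). Its other probe set, below the floor, gave 0.07.

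Perp, a tetraspan membrane protein of desmosomes that p53 induces in apoptosis, had a mean below the floor and was outside the main test. It read 5.44, 5.12, 6.01 and 5.69 in WT lines and 4.88, 4.58, 4.35 and 4.27 in Cry DKO lines, so every Cry DKO line lay below every WT line. The difference was -1.04 (SE 0.24), and it passed when no floor was set (limma adjusted p = 0.028 over 13307 genes, of which 2.65% fell). Signals this dim are imprecise. Of 6 epithelial markers analysed, 2 reached the floor, and the mean of the 6 was 4.44 to 5.06 in WT and 4.53 to 5.19 in Cry DKO lines. Singly they went both ways, from -0.30 for Krt18 to 1.29 for Krt8, which was below the floor and did not overlap.

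The remaining genes of this role did not pass. Ei24, a protein of the endoplasmic reticulum, read 10.66 to 10.73 in WT and 10.41 to 10.65 in Cry DKO lines, without overlap, and its difference of -0.12 (SE 0.06) did not pass (limma adjusted p = 0.231). Phlda3, which keeps the kinase AKT from the membrane, differed by -0.07. Zmat3, an RNA-binding zinc finger protein, differed by -0.08, and Aen, a nuclease that acts in apoptosis, by 0.01. The SE of each of these was 0.06 to 0.07. The other probe sets of Aen gave 0.16 and -0.17, and below the floor -0.28, so its sign was not settled.

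Among the 4 genes of cell cycle arrest 1 fell, Btg2. Gadd45a, a stress-induced inhibitor of CDK1, differed by -0.07 (SE 0.16, limma adjusted p = 0.838), with WT line 2 at 8.79 and the other 7 lines at 7.98 to 8.41. Plk2, a polo-like kinase induced by p53, differed by -0.06 (SE 0.07, adjusted p = 0.638). Gtse1, a microtubule-binding protein of S and G2 phase that moves p53 out of the nucleus, differed by 0.02 (SE 0.09, limma adjusted p = 0.92), with a 95% confidence interval from -0.17 to 0.21. In the same lines 22 of 24 G2 and mitosis genes rose, beside 4.95% of all tested genes. That list was written with earlier results of these data known. The median difference of the 24 was 0.45, and Top2a rose by 0.56 (SE 0.05) and Bub1 by 0.54 (SE 0.06). Over the 24 the differences ran from 0.27 to 0.79; whether Gtse1 differs from them was not tested.

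None of the 3 tested DNA repair genes passed in limma, and 1 had an unadjusted p under 0.05. That was Polk, a DNA polymerase that copies past damaged bases, which read 8.73, 8.76, 8.67 and 8.59 in WT and 8.57, 8.54, 8.40 and 8.28 in Cry DKO lines. The groups did not overlap, and the difference was -0.24 (SE 0.08, limma adjusted p = 0.0895). Its dimmer probe set gave -0.12 with overlap. Rrm2b, the p53-induced subunit of ribonucleotide reductase, differed by -0.14 (SE 0.11, limma adjusted p = 0.484). Its other probe sets gave -0.17 and, below the floor, 0.24 and 0.084. Xpc, a damage sensor of nucleotide excision repair, differed by 0.11 (SE 0.15, adjusted p = 0.707). Ddb2, a sensor of ultraviolet damage, was below the floor, and its mean was 5.28 ± 0.14 for WT lines (SD, n = 4) and 5.27 ± 0.66 for Cry DKO lines. Its other probe set, also below the floor, gave -0.23.

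The sestrins restrain the growth kinase mTORC1 under stress, and none of the 3 passed. Sesn1 differed by 0.13 (SE 0.09, limma adjusted p = 0.40), and its 3 other probe sets gave 0.28, 0.31 and, below the floor, 0.35. Sesn3 differed by -0.30 (SE 0.13, unadjusted p = 0.0393, adjusted p = 0.174), and its other probe set gave -0.16. Sesn2 differed by -0.23 (SE 0.13, limma adjusted p = 0.32). The other probe set of Sesn2 pointed the opposite way, 1.10 (SE 0.56, limma adjusted p = 0.271 with each probe set tested). It read 5.09, 5.41, 5.33 and 7.66 in WT lines and 7.59, 5.57, 7.36 and 7.37 in Cry DKO lines. WT lines 1 to 3 and Cry DKO line 2 were thus low and the other 4 high, an order that neither genotype nor sex follows and that the brighter probe set did not show (7.40 to 8.10).

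Rps27l, a ribosomal protein S27-like gene that p53 induces, read 12.64 to 12.85 in all lines and differed by -0.07 (SE 0.05, limma adjusted p = 0.362). Its probe set is of a type that Affymetrix marks as able to bind other transcripts, and the gene has a close relative in Rps27, so the signal may not be its own. The other probe sets gave -0.08 and -0.05.

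**Figure D4:**
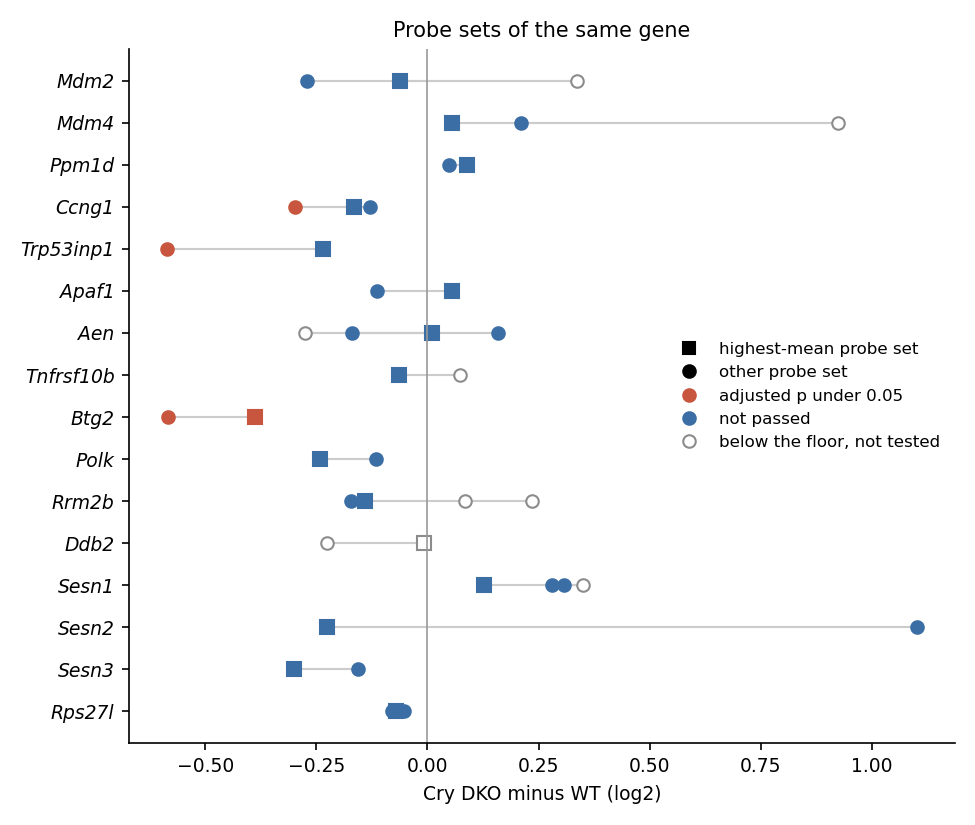
Difference between Cry DKO and WT lines (log2, x axis) for every probe set of the 16 genes that have more than 1; squares mark the brightest probe set, red an adjusted p under 0.05 with each probe set tested, and open grey symbols probe sets below the floor. Both probe sets of Btg2 are red, while for Ccng1 and Trp53inp1 only a dimmer one is, and the probe sets of Sesn2 lie on opposite sides of 0.

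Over the 26 genes, the mean difference of a line from the WT mean ran from -0.07 to 0.06 in WT lines and from -0.20 to -0.04 in Cry DKO lines. Cry DKO line 1 was the lowest at -0.20, and Cry DKO line 3 at -0.04 lay within the WT range. By role, Cry DKO line 1 was the lowest for apoptosis, at -0.31, and for arrest, at -0.22. Its apoptosis mean includes the dim genes Fas, 5.33 against a WT mean of 6.97, and Tnfrsf10b, 5.56 against 6.15. Cry DKO line 2 was the lowest for repair and for stress, at -0.22 and -0.20. For the regulators WT line 1 and Cry DKO line 1 had nearly the same value, -0.15 each.

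**Figure D5:**
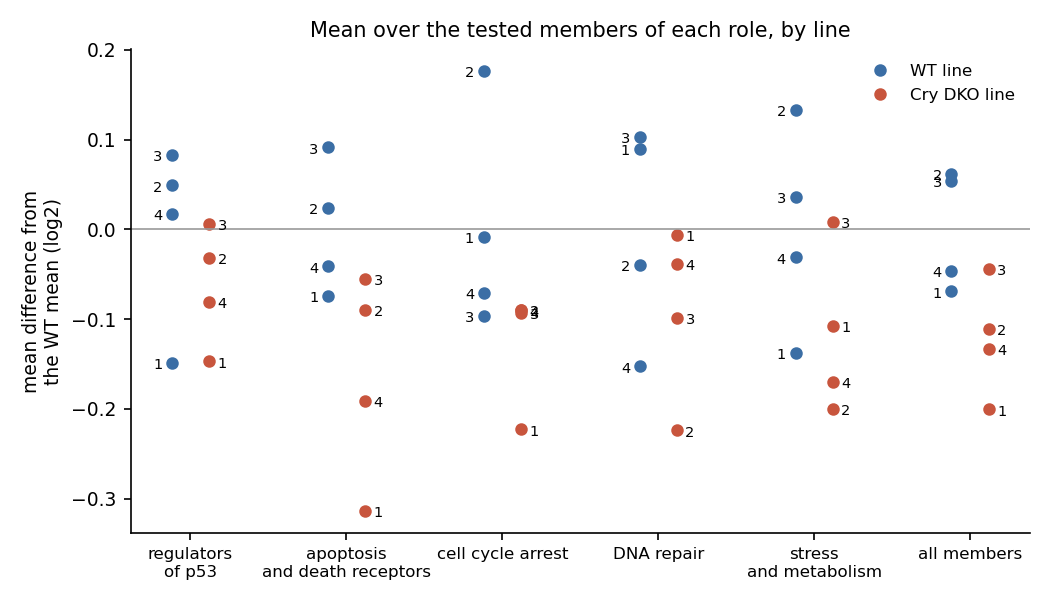
Mean over the tested genes of each role of the difference from the WT mean (log2, y axis) for each WT line (blue) and Cry DKO line (red), with line numbers. Cry DKO line 1 is the lowest for apoptosis and for arrest, and WT and Cry DKO lines overlap in every role.

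Cell type markers were compared between the genotypes in the same way. All 9 tested fibroblast markers had a difference below 0, with a median of -0.07, beside -0.07 for the 26 genes, and none passed in limma, while 3 had an unadjusted p under 0.05. Col1a1 and Sparc differed by -0.20 and -0.14 without overlap (adjusted p = 0.106 and 0.0882). Of 3 skeletal muscle markers analysed, Acta1 and Des were tested, differed by -0.33 and -0.38 and did not pass (adjusted p = 0.135 and 0.125). The third, Mylpf, was below the floor and differed by 0.03. Of 21 tested macrophage and blood cell markers 11 rose and none fell, beside 4.95% and 4.23% of all tested genes, with a median of 0.75. Over all 22 such markers analysed, the highest mean was in Cry DKO line 1, at 9.61. With the mean of the 21 tested macrophage and blood cell markers as a covariate none of the 26 genes was called in limma. Against 402 and 471 in the main fit, 29 of all 9511 tested genes fell and 22 rose with this covariate. Btg2 then differed by -0.23 (SE 0.12, limma adjusted p = 0.37), Eda2r by -0.13 (SE 0.11, adjusted p = 0.564) and Ccng1 by -0.20 (SE 0.07, adjusted p = 0.189). The marker level itself differs between the genotypes. The part of these cell type markers in the result was not tested. With sex in the fit Btg2 alone of the 26 was called, while Eda2r differed by -0.27 (adjusted p = 0.0666) and Ccng1 by -0.16 (adjusted p = 0.0817). In that fit 227 of all tested genes fell and 293 rose.

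Genes that act on p53 from outside the group were compared between the genotypes in the same way. Of 25 tested activators, partners and modifiers, 1 rose and 2 fell, with a median of -0.02. Over all tested genes 4.95% rose and 4.23% fell, and whether the list differs from that was not tested. Hipk2, a kinase that phosphorylates p53, read 10.74 to 10.91 in WT and 10.12 to 10.53 in Cry DKO lines, and fell by 0.44 (SE 0.08, limma adjusted p = 0.00973). Cdkn2a, whose products include ARF, which restrains MDM2, fell by 0.42 (SE 0.11, limma adjusted p = 0.0382). Which product's transcript fell was not tested. Chek1, the replication checkpoint kinase, rose by 0.41 (SE 0.11, limma adjusted p = 0.0454). Dyrk2 and Twist1 differed by -0.22 and -0.25 and did not pass (adjusted p = 0.0599 and 0.063), and Ep300 and Cop1 differed by -0.26 and -0.12. The p53 relatives Trp63 and Trp73 were below the floor in every line, at 2.82 to 3.76 and 2.41 to 4.28.

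Of 24 further p53 targets tested, 1 rose and 1 fell, beside 4.95% and 4.23% of all tested genes, and the median was -0.02. Cdkn1a, which encodes the CDK inhibitor p21, read 12.32, 12.38, 12.51 and 12.50 in WT lines and 12.09, 12.09, 12.19 and 11.64 in Cry DKO lines. It fell by 0.42 (SE 0.10, limma adjusted p = 0.0305), and Cry DKO line 4 was the lowest. Ckap2, a spindle protein, rose by 0.36 (SE 0.10, limma adjusted p = 0.0389). Pltp and Dram1 differed by 0.29 and 0.35, and Lif and Ercc5 by -0.29 and -0.19, none of which passed.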

How the data were processed

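Total RNA (5 ug, Trizol) was labelled with biotin and measured on an Affymetrix 3' array, 1 array per line, per the labels. The deposited values are taken as log2: the authors' scale is not stated, and the base is inferred from their range (0.07 to 14.3). The tool GCOS is named by the submitters' processing notes, with no role stated. The method of normalisation and the basis on which probe sets were kept were not given in the sources used here. Of 30506 probe sets, 24838 named 1 gene, 658 several and 4949 none, and 61 were controls; symbols were updated by gene ID through the GRCm38.p6 table (24757 found).

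The highest-mean probe set represents a gene. Genotypes were compared with limma 3.58.1 (R 4.3.3; lmFit, eBayes with an intensity trend, no covariate), with 4 arrays per genotype from the sample titles, and no 2 arrays were identical. The fit was tested on simulated data. All listed genes were named by rule, with called genes and up to 4 others from each further pathway list; Trp63 and Trp73 were chosen after their values were seen. The members and lists were chosen with earlier results of these data known. The exact test planned for Trp53 was not run. Alternatives were filters, normalisations, probe set rules, empirical Bayes settings, covariates, thresholds and each line left out.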

Additional observations from a re-analysis of the deposited data

Results flagged for a closer look

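Among 56 groups of 4 lines (28 genes, each genotype), 4 held a line that stood far from the other 3; about 1 in 20 groups does so by chance. Ppm1d was 6.95 in Cry DKO line 1 and 7.24 to 7.27 in the others. Ccng1 was 12.73 in Cry DKO line 4 against 12.82 to 12.83, and without that line its difference was -0.14 with a limma adjusted p of 0.0763. Pmaip1 was 11.00 in WT line 4 against 11.38 to 11.45. Plk2 was 11.56 in Cry DKO line 4 against 11.45 to 11.47. Of the 4, only Pmaip1 passed the test when its line was left out.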

How the results depend on the processing

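The count of genes of the group that fell was 3. It was 0 at an adjusted p of 0.01, with each gene on its own spread alone and with the macrophage covariate, 1 with sex as a term, 5 at an adjusted p of 0.10 and 5 with a replicate block. Without 1 line it was 1 in each of the 8 fits, which also have fewer samples: Btg2 in 5, and Ccng1, Pmaip1 and Trp53inp1 in 1 each. It was 2 after quantile normalisation or cyclic loess, without an intensity trend and with each probe set tested; the call of Ccng1 ended in these 4 and without a floor (adjusted p = 0.0507 to 0.119). None rose in any alternative. Over all tested genes, 402 fell and 471 rose; these were 73 and 137 at 0.01, 706 and 731 at 0.10, 118 and 199 on own spread, 29 and 22 with the macrophage covariate, 227 and 293 with sex, and 160 to 329 and 222 to 365 without 1 line.

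The replicate block added Trp53inp1 (limma adjusted p = 0.0382) and Fas (0.0394). The labels do not say that same-numbered lines are paired, though lines 1 (female), 2 and 3 (male) also share a sex. Deviations from the group means correlated at 0.36, 0.12, 0.23 and -0.01 for numbers 1 to 4, not all over 0.1, and WT lines 1 to 3, but not 4, correlated best with their own number.

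Signs turned only for genes that were not called, and not into a call. With the macrophage covariate these were Aen (-0.0089), Gadd45a (0.21), Mdm2 (0.18), Plk2 (0.0040), Sesn3 (0.084) and Tnfrsf10b (0.35). With the mean of all probe sets they were Aen (-0.069), Apaf1 (-0.028), Mdm2 (0.0015), Rrm2b (0.0019), Sesn2 (0.44) and Tnfrsf10b (0.0045). With sex as a term they were Mdm2 (0.059) and Tnfrsf10b (0.0051), and with array weights Mdm2 (0.012). Without 1 line, differences ran from -0.024 to 0.066 for Aen, -0.16 to 0.11 for Gadd45a, -0.047 to 0.052 for Gtse1, -0.23 to 0.040 for Mdm2, -0.12 to 0.00038 for Plk2 and -0.15 to 0.11 for Tnfrsf10b. The cause was not tested. Dim signals limit Perp, Ddb2, Fas and Tnfrsf10b.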
